A study of Homo sapiens with 2 samples.

Results

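The 10 genes described here were chosen by symbol as targets or components of the ATF4 programme of serine, asparagine and one-carbon metabolism. They are PHGDH, PSAT1, PSPH, SHMT2, MTHFD2, ASNS, SLC7A5, SLC3A2, ATF4 and TRIB3, and 10 of 10 were listed in both libraries among 18786 genes with a value in both. RNA sequencing had been run on A549, a human line established from a lung adenocarcinoma, grown in DMEM with fetal bovine serum and antibiotics. The ATOH8 group was a culture carrying a stably transduced ATOH8 retrovirus (ATOH8 is a transcription factor of the bHLH class), and the vector group was a culture stably transduced with the retroviral vector. Each group had 1 library, so each difference compares these 2 libraries, with no replicate check, no error and no p-value of its own. Whether a culture was a pool or a clone is not given in the sources used here.

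ATF4 is the transcription factor at the end of the integrated stress response. Kinases that sense amino acid shortage, unfolded proteins, haem shortage or double-stranded RNA phosphorylate the initiation factor eIF2, which lowers general translation and raises translation of ATF4 from its existing mRNA. ATF4 then induces genes that make, import and charge amino acids. In lung cancer lines, NRF2, which is constitutively active in A549 cells through mutation of its inhibitor KEAP1, is known to raise serine synthesis genes by way of ATF4. Standard DMEM supplies serine and glycine and lacks asparagine.

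The values are FPKM, that is, read abundance divided by transcript length and by library size, so levels of different genes can be compared with each other. FPKM summed to 502502 over the 20870 genes of the ATOH8 file and to 540101 over the 20966 genes of the vector file. The sources used here do not give the read depth, and the values therefore carry no counting interval. ATOH8 itself stood at 182 FPKM in the ATOH8 library and 0.786 FPKM in the vector library. Mitochondrially encoded transcripts, MT-CO1 aside, accounted for 24.2% of all FPKM in ATOH8 cells and 14.4% in vector cells. The median log2 fold (ATOH8 over vector, on the log2(FPKM + 1) scale) over genes averaging 5 FPKM or more was -0.36. Folds below are relative to that median gene unless they are called "as deposited", and a gene is called lower or higher when it lay at least 2-fold from the median gene. Folds also followed GC content, with medians of -0.70 for the tenth of genes poorest in GC and 0.63 for the tenth richest in GC, so a GC-corrected fold is given as well. The epithelial and A549 markers were present at summed levels of 12748 FPKM in the ATOH8 library and 14452.5 FPKM in the vector library. KRT19 was at only 0.0700 FPKM in the ATOH8 library and 0.219 FPKM in the vector library. EPCAM was low too, at 2.23 and 1.70 FPKM in the same order. CDH1, the E-cadherin gene, stood at 54.1 FPKM in ATOH8 cells and 15.4 FPKM in vector cells (2.11), and AKR1C1 at 1088 and 691 FPKM (1.01). Among markers of other cell types, 3 endothelial markers were listed in the ATOH8 file alone at 0.0510 FPKM or less, 3 fibroblast markers were at 0.332 FPKM or less in both libraries, CD3E was not listed and PTPRC was at 0.0111 FPKM in the ATOH8 file alone. The remaining leukocyte marker, CD14, which epithelial cells can also express, stood at 9.14 FPKM in the ATOH8 library and 1.12 FPKM in the vector library. SYP, a neuroendocrine marker, was at 0.679 and 2.68 FPKM in the same order. The other neuroendocrine markers were lower still, NCAM1 at 0.0581 and 0.0234 FPKM and CHGA at 0.136 and 0.241 FPKM. The part of GC content, mitochondrial share and these markers in the results was not tested. In bulk RNA, fewer expressing cells and less RNA per cell cannot be told apart.

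As a group the 10 genes summed to 852 FPKM in the ATOH8 library and 1782 FPKM in the vector library. That level in ATOH8 cells was 47.8% of that in vector cells, while the median gene stood at 0.78 times its vector level. SLC7A5 and SLC3A2 made up 440 FPKM of the ATOH8 sum and 882 FPKM of the vector sum. Relative to the median gene, PSAT1, MTHFD2 and ASNS stood lowest, while after GC correction the order was PSAT1, SLC7A5, ASNS, PHGDH and MTHFD2. The genes for the phosphatase of serine synthesis (PSPH), the mitochondrial serine hydroxymethyltransferase (SHMT2), ATF4 itself and its feedback inhibitor TRIB3 lay close to the median gene. By the 2-fold rule 3 of the 10 were lower, against 9.46% of all 12342 genes averaging 1 FPKM or more. None was at least 2-fold higher, where 12.8% of all tested genes were. Their median was -0.63, beside 0.06 over all genes tested. As deposited, without that subtraction, 5 of the 10 were at least 2-fold lower (19.0% of all tested genes, with 6.24% at least 2-fold higher) and 10 of 10 were below their vector level (64.7% of all tested genes). The GC-corrected folds put 4 of the 10 at least 2-fold lower, against 5.96% of all genes (8.33% were at least 2-fold higher), and 10 of 10 had a negative fold. The 10 genes were well expressed, with mean levels between 29.01 and 349 FPKM beside a median of 8.87 FPKM over tested genes. Among the 3338 genes with a mean of at least 20 FPKM, a comparison chosen after the data were seen, 11.3% were at least 2-fold lower.

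**Figure D1:**
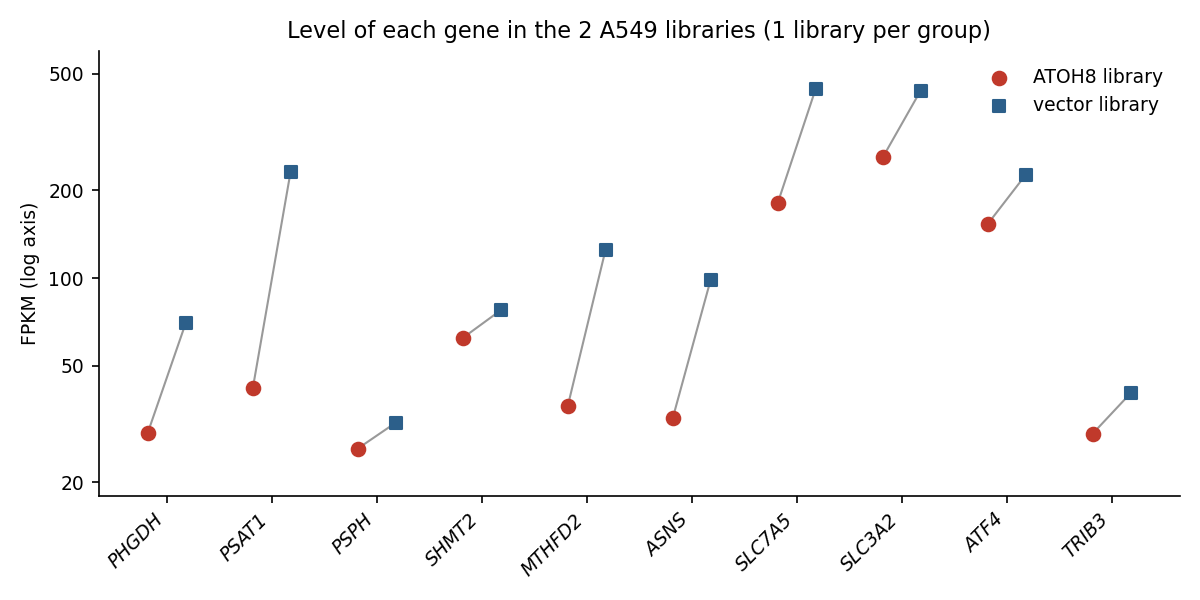
Level of each of the 10 genes in FPKM, on a log axis, in the ATOH8 library (red circles) and the vector library (blue squares), with 1 library per group and a line joining the 2 values of a gene. The line is longest for PSAT1 (41.96 FPKM in the ATOH8 library, 231 FPKM in the vector library) and shortest for PSPH (26.1 and 31.95 FPKM in the same order).

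Serine is made from a glycolytic intermediate, 3-phosphoglycerate, by the enzymes of PHGDH, PSAT1 and PSPH acting in that order. The 3 genes did not move alike: the middle gene stood at -2.08, the first at -0.86 and the last at 0.08. PHGDH (ENSG00000092621, chromosome 1, 119648411 to 119744226, plus strand, GENCODE 29 on GRCh38) encodes phosphoglycerate dehydrogenase, which oxidises 3-phosphoglycerate and commits it to serine. It stood at 29.6 FPKM in the ATOH8 library and 70.0 FPKM in the vector library, a fold of -0.86. As deposited (-1.22) and after GC correction (-1.14) it passed the 2-fold line, which it missed relative to the median gene. PHGDH was not in the authors' deposited table, although its log2 ratio of plain FPKM was -1.24.

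PSAT1 (ENSG00000135069, chromosome 9, 78297143 to 78330093, plus strand) encodes phosphoserine aminotransferase, which takes nitrogen from glutamate to make phosphoserine. It stood at 41.96 FPKM in the ATOH8 library and 231 FPKM in the vector library. That level was 5.51 times lower in ATOH8 cells, with a fold of -2.08, and only 0.373% of tested genes had a lower fold. Its transcript is AT-rich, with a GC content of 42.3% beside a median of 48.5% over tested genes, and its fold after GC correction was -1.74. The authors' deposited table marked PSAT1 down with a log2 ratio of -2.46 and a q-value of 0.000611, which compares these libraries and not the conditions.

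PSPH (ENSG00000146733, chromosome 7, 56011051 to 56051604, minus strand) encodes phosphoserine phosphatase, which releases free serine. It stood at 26.1 FPKM in the ATOH8 library and 31.95 FPKM in the vector library, a fold of 0.08 relative to the median gene, -0.28 as deposited and -0.10 after GC correction. The balance of the pathway's transcripts therefore differed between the libraries. The level of PSAT1 was 1.61 times that of PSPH in ATOH8 cells and 7.24 times in vector cells, and the level of PHGDH was 1.13 times that of PSPH in ATOH8 cells and 2.19 times in vector cells. Summed over the 3 genes, serine synthesis transcripts stood at 97.6 FPKM in the ATOH8 library and 333 FPKM in the vector library.

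The promoter sequences of PSAT1 and PHGDH are shown with each CCAAT box, the recognition sequence of the factor NF-Y, in capitals. Both genes were at least 2-fold below their vector level as deposited and after GC correction. So were ASNS and SLC7A5, whose windows held no CCAAT, so the sequences shown are not a full set of the lower genes. The PSAT1 and PHGDH sequences follow. They are from RefSeq (GRCh38.p14), read 5′ to 3′ on the gene's strand and ending at the base before the annotated start. PSAT1 is chr9:78296925-78297124 and PHGDH is chr1:119711814-119711933, both on the plus strand.
PSAT1: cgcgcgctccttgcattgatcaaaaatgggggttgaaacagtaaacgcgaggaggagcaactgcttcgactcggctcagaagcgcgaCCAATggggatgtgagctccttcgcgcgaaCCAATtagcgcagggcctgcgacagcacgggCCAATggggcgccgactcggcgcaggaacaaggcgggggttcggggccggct
PHGDH: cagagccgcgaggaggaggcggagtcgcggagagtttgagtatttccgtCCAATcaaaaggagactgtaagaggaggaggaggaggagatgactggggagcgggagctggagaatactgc
The PSAT1 window held CCAAT at -113, -83 and -52 from the start, and the PHGDH window held it at -71. Searched on both strands from 250 bases before to 50 bases after the start, CCAAT occurred for 4 of the 8 genes that matched a RefSeq promoter entry (PHGDH, PSAT1, MTHFD2 and SLC3A2) and for 39.7% of all genes with such a window. A match is a description of letters and says nothing of binding in these cells.

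Serine feeds the mitochondrial folate pathway, in which SHMT2 splits serine to glycine and a folate-bound carbon unit and MTHFD2 oxidises that unit on the way to formate. The first of these genes was on the median gene and the second was lower. SHMT2 (ENSG00000182199, chromosome 12, 57229327 to 57234935, plus strand) stood at 62.4 FPKM in the ATOH8 library and 77.5 FPKM in the vector library, a fold of 0.05 relative to the median gene, -0.31 as deposited and -0.40 after GC correction.

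MTHFD2 (ENSG00000065911, chromosome 2, 74198562 to 74217565, plus strand), which is known for high expression in embryonic and tumour tissue and little in most adult tissue, stood at 36.5 FPKM in the ATOH8 library and 125 FPKM in the vector library. That level was 3.43 times lower in ATOH8 cells, a fold of -1.39, and 3.49% of tested genes had a lower fold. It had the lowest GC content of the 10 genes, 41.4%, and its GC-corrected fold of -0.98 was just short of 2-fold. In the authors' deposited table it was marked down with a log2 ratio of -1.78 and a q-value of 7.14e-05. The file's locus for MTHFD2 also spans 5 other listed genes, and the counting may have divided reads among them. The most abundant of those with a value in both libraries, DCTN1, stood at 25.6 FPKM in the ATOH8 library and 43.2 FPKM in the vector library. The locus of SHMT2 spans 1 other listed gene, NDUFA4L2, at 0.186 and 0.598 FPKM. In FPKM, without GC correction, the level of SHMT2 was 1.71 times that of MTHFD2 in ATOH8 cells and 0.619 times in vector cells. The order of the pair in FPKM was therefore opposite in the 2 libraries. Relative to the median gene the folds were 0.05 for SHMT2 and -1.39 for MTHFD2. After GC correction they lay nearer to each other, at -0.40 and -0.98. Whether the order would be opposite on GC-corrected levels was not tested.

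The MTHFD2 promoter (chr2:74198415-74198614, plus strand, the 200 bases before the RefSeq start) is shown for comparison with that of PSAT1, with CCAAT in capitals.
MTHFD2: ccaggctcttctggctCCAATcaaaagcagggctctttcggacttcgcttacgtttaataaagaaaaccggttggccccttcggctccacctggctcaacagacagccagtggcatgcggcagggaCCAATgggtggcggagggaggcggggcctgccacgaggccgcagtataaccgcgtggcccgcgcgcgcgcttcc
It held CCAAT at -184 and -74 from the start.

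The remaining folate and methionine cycle genes were spread from -1.88 to 1.21. Among 24 tested genes 5 were lower and 1 was higher by the 2-fold rule (median -0.42), beside 9.46% and 12.8% of all tested genes. After GC correction 3 were lower and 0 higher (5.96% and 8.33% of all genes). As deposited 8 were lower and 0 higher (19.0% and 6.24%). The lowest was GGH, a hydrolase that trims folate polyglutamates, at 11.7 FPKM in the ATOH8 library and 59.1 FPKM in the vector library (-1.88). SLC25A32, the mitochondrial folate carrier, was at 4.26 FPKM in the ATOH8 library and 18.2 FPKM in the vector library (-1.51). GCSH (-1.06) and DLD (-1.04), which encode subunits of the glycine cleavage system, were lower too. GC correction brought them within 2-fold, to -0.59 for GCSH and -0.48 for DLD. GLDC, of the same system, was within 2-fold at -0.69 (GC-corrected -0.96) and past it as deposited (-1.05). AMT, also of that system, fell below a mean FPKM of 1, at 0.446 FPKM in the ATOH8 library and 0.305 FPKM in the vector library. The higher gene was FPGS, which adds the glutamate tail to folates, at 34.7 FPKM in the ATOH8 library and 18.8 FPKM in the vector library (1.21, and 0.59 after GC correction).

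The relatives of the pair in the pathway were within 2-fold of the median gene. SHMT1, the cytosolic hydroxymethyltransferase, was at 22.5 FPKM in the ATOH8 library and 28.7 FPKM in the vector library (0.02). MTHFD1, the cytosolic trifunctional enzyme, was at 45.7 and 85.7 FPKM (-0.53), and MTHFD1L, the mitochondrial enzyme that releases formate, at 15.7 and 20.5 FPKM (-0.002). MTHFD2L, the close paralog of MTHFD2, was at 4.17 FPKM in the ATOH8 library and 6.96 FPKM in the vector library (-0.26). The level of MTHFD2 was 8.75 times that of MTHFD2L in ATOH8 cells and 17.97 times in vector cells.

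Asparagine synthetase, the enzyme of ASNS, makes asparagine from aspartate with glutamine as nitrogen donor, and its gene is a classic readout of ATF4. ASNS (ENSG00000070669, chromosome 7, 97852118 to 97872542, minus strand) stood at 33.2 FPKM in the ATOH8 library and 98.5 FPKM in the vector library. It was 2.97 times lower in ATOH8 cells, a fold of -1.18, and 6.07% of tested genes had a lower fold. With a GC content of 47.0%, near the median of tested genes, it moved little on GC correction (-1.21). In the authors' deposited table it was marked down with a log2 ratio of -1.57 and a q-value of 0.0076.

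The ASNS promoter is shown because it carries the known amino acid response element. The capitals mark the match to TGATGNAA, the core of the CARE (the composite site bound by ATF4 with a C/EBP factor), at -68 to -61 from the RefSeq start. The stretch is chr7:97872409-97872528 on the minus strand. For SLC3A2, a 30-base stretch just after 1 of the 3 starts that RefSeq gives (chr11:62881719-62881748, plus strand) holds the same core as its reverse complement.
ASNS: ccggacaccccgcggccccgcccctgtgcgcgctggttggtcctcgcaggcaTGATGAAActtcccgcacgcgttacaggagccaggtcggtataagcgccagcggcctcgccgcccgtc
SLC3A2: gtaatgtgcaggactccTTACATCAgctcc
These were the only TGATGNAA matches on either strand in the windows of the 8 genes with a RefSeq entry, and 4.46% of all genes with a window held one. The CRE core TGACGTCA was in the window of 0 of the 8 and of 2.25% of all genes. Elements outside these 300 bases, introns included, were not searched.

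SLC7A5 and SLC3A2 encode the light and heavy chains of the LAT1 transporter, which imports leucine and other large neutral amino acids. Both were among the most abundant of the 10 transcripts, and the light chain differed more than the heavy chain. SLC7A5 (ENSG00000103257, chromosome 16, 87830023 to 87869488, minus strand) stood at 181 FPKM in the ATOH8 library and 444 FPKM in the vector library, which is 2.45 times lower in ATOH8 cells. Its fold was -0.93 relative to the median gene, -1.29 as deposited and -1.49 after GC correction, so it fell short of 2-fold only on the first of these scales. Its GC content of 61.1% was the highest of the 10. The authors' deposited table marked it down with a log2 ratio of -1.29 and a q-value of 0.000443.

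SLC3A2 (ENSG00000168003, chromosome 11, 62856102 to 62888875, plus strand) stood at 259 FPKM in the ATOH8 library and 438 FPKM in the vector library, a fold of -0.40 relative to the median gene, -0.76 as deposited and -0.86 after GC correction. The heavy chain also partners other light chains, such as xCT. The level of SLC7A5 was 0.699 times that of SLC3A2 in ATOH8 cells and 1.01 times in vector cells. The fold was under 2-fold on all 3 scales, and SLC3A2 was not in the authors' deposited table.

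Among 18 other amino acid transporters tested, 3 were lower and 2 higher by the 2-fold rule (median -0.12), beside 9.46% and 12.8% of all tested genes. This balance depended on the scale. The GC-corrected counts were 1 lower and 3 higher (5.96% and 8.33% of all genes). Those as deposited were 5 lower and 0 higher (19.0% and 6.24%). SLC38A1 (9.70 FPKM in the ATOH8 library and 37.9 FPKM in the vector library, -1.50) and SLC38A2 (42.5 and 129.8 FPKM, -1.23) encode sodium-coupled glutamine transporters. SLC7A11 encodes xCT, the cystine importer, and was at 9.34 FPKM in the ATOH8 library and 29.95 FPKM in the vector library (-1.22). These 3 are AT-rich, with GC contents of 41.3%, 38.1% and 35.4%, and only SLC38A1 (-1.08) was past 2-fold after GC correction. The higher genes were SLC43A1, another carrier of large neutral amino acids, at 3.68 FPKM in the ATOH8 library and 1.91 FPKM in the vector library (1.05), and the cationic amino acid carrier SLC7A2 at 6.02 and 3.46 FPKM (1.01). SLC43A1 and SLC7A2 were not past 2-fold as deposited. The genes past 2-fold higher after GC correction were SLC7A2 (1.46), SLC16A10 (1.39) and SLC6A15 (1.06), while SLC43A1 (0.56) was within it. SLC1A5, a glutamine transporter, was at 151 and 189.5 FPKM (0.03). SLC7A8, the LAT2 light chain, had a value in the ATOH8 file alone, 0.0850 FPKM.

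ATF4 (ENSG00000128272, chromosome 22, 39519695 to 39522685, plus strand) stood at 153 FPKM in the ATOH8 library and 225 FPKM in the vector library. Its fold was -0.20 relative to the median gene, -0.55 as deposited and -0.63 after GC correction. ATF4 is controlled largely through translation and protein stability, which mRNA does not report. The level of PSAT1 was 0.274 times that of ATF4 in ATOH8 cells and 1.03 times in vector cells, and the level of ASNS was 0.217 and 0.437 times that of ATF4 in the same order. These ratios are in FPKM, without GC correction, and ATF4 is richer in GC (56.7%) than PSAT1 (42.3%) and ASNS (47.0%). The GC-corrected folds of PSAT1 (-1.74) and ASNS (-1.21) lay nearer to that of ATF4 than the folds relative to the median gene did.

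TRIB3 (ENSG00000101255, chromosome 20, 362835 to 397559, plus strand) encodes a pseudokinase that ATF4 induces and that binds and restrains ATF4. It stood at 29.4 FPKM in the ATOH8 library and 40.3 FPKM in the vector library, a fold of -0.09 relative to the median gene, -0.45 as deposited and -0.65 after GC correction. The level of TRIB3 was 0.192 times that of ATF4 in ATOH8 cells and 0.179 times in vector cells, nearly the same ratio. Of the 10 genes, 4 were in the authors' deposited table, each marked down and none up, and 6 were not in it. Of all genes tested, 14.7% were marked down there and 5.16% up. The authors' log2 ratios equal those of the FPKM used here, so the table is not an independent measurement.

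**Figure D2:**
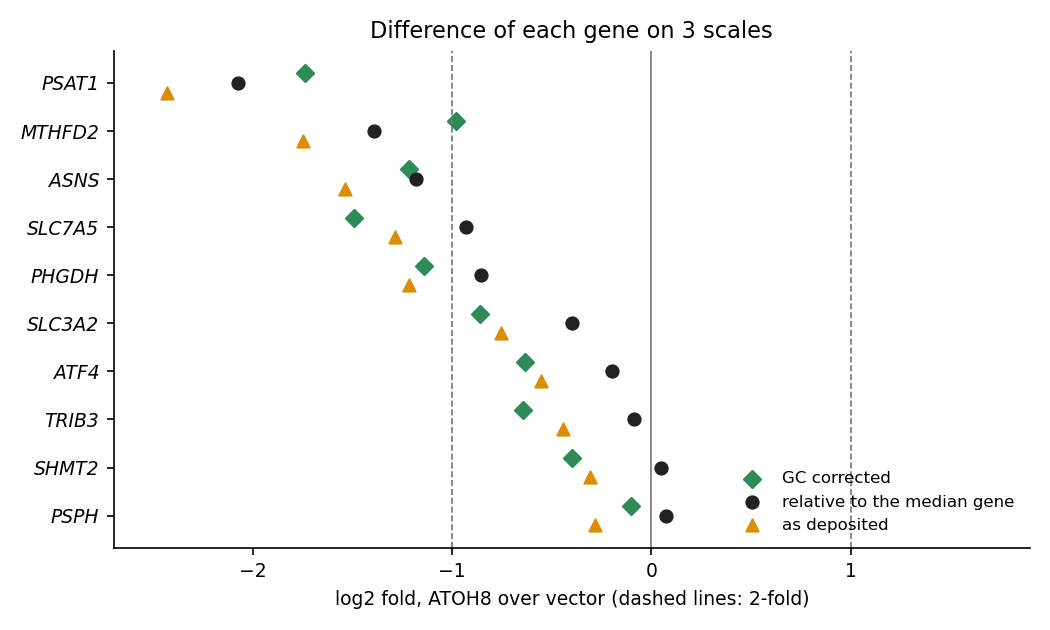
Log2 fold of each of the 10 genes, ATOH8 over vector, relative to the median gene (black circles), as deposited (orange triangles) and after GC correction (green diamonds), with dashed lines at 2-fold and genes ordered by the first scale. PSAT1 and ASNS lay past 2-fold on all 3 scales, while PSPH, SHMT2, ATF4, TRIB3 and SLC3A2 were within 2-fold on all 3.

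The fold of the 10 genes varied with base composition among themselves too. Over the 10 genes Pearson's r between fold and GC content was 0.70 and Spearman's rho was 0.49, given as a description over genes of the same 2 libraries. Across all 12313 tested genes with a known transcript sequence, rho between the fold as deposited and GC content was 0.55. GC correction brought PSAT1 and MTHFD2, the most AT-rich of the 10, nearer to 0, and moved the GC-rich SLC7A5, SLC3A2, ATF4 and TRIB3 further below it. Among the 8253 tested genes whose GC content lay within the range of the 10 genes, from 41.4% to 61.1%, 5.20% were at least 2-fold lower without correction.

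**Figure D3:**
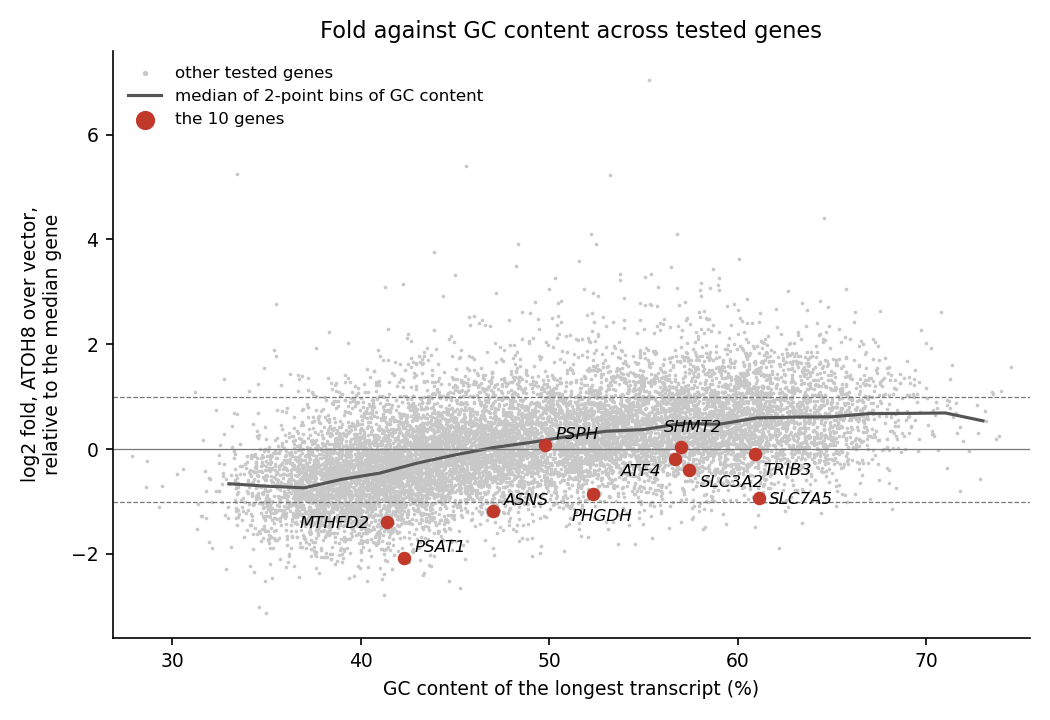
Log2 fold relative to the median gene (y axis) against GC content of the longest transcript in percent (x axis) for tested genes (grey), with the median of bins of GC content as a line and the 10 genes in red. Each of the 10 lies below the line at its own GC content, PSPH at 49.8% GC closest to it and PSAT1 at 42.3% GC furthest down.

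Other known ATF4 and stress response targets lay on both sides of the median gene. Among 21 tested genes 4 were higher and 1 was lower by the 2-fold rule (median 0.34), beside 12.8% and 9.46% of all tested genes. This balance depended on the scale. As deposited 2 were higher and 5 lower (median -0.02), beside 6.24% and 19.0% of all tested genes. After GC correction 3 were higher and 5 lower (median -0.19), beside 8.33% and 5.96% of all genes. The lower gene was CEBPG, which encodes a C/EBP partner of ATF4, at 13.7 FPKM in the ATOH8 library and 37.4 FPKM in the vector library (-1.03, and -0.84 after GC correction). CHAC1, a glutathione-degrading enzyme gene, was just within 2-fold at 1.21 FPKM in the ATOH8 library and 4.58 FPKM in the vector library (-0.98), and past it as deposited (-1.33) and after GC correction (-1.57). ATF5 (-0.68) and NUPR1 (-0.83) were also below the median gene and were past 2-fold after GC correction, at -1.22 and -1.03.

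DDIT3, ATF3, CEBPB, SESN2 and DDIT4 were within 2-fold relative to the median gene, as deposited and after GC correction. DDIT3, which encodes CHOP, was at 3.81 FPKM in the ATOH8 library and 3.71 FPKM in the vector library (0.39). ATF3 was at 3.38 and 3.14 FPKM (0.44), and CEBPB at 80.7 and 65.4 FPKM (0.66). SESN2, an inhibitor of mTORC1, was at 4.12 FPKM in the ATOH8 library and 4.197 FPKM in the vector library (0.34). DDIT4, another mTORC1 inhibitor gene, was at 170 and 186 FPKM (0.23). After GC correction CEBPB was at -0.008, SESN2 at -0.19 and DDIT4 at -0.26.

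The 4 higher genes of this list, BBC3, TRIB1, VLDLR and MAP1LC3B, do not encode amino acid enzymes. BBC3 encodes the apoptosis inducer PUMA, which p53 also induces, and was at 18.8 FPKM in the ATOH8 library and 4.23 FPKM in the vector library (2.28). TRIB1, a relative of TRIB3, was at 12.4 and 4.64 FPKM (1.61), and VLDLR, a lipoprotein receptor gene, at 13.4 and 7.14 FPKM (1.18). MAP1LC3B, which encodes the autophagosome protein LC3B, was at 23.5 FPKM in the ATOH8 library and 14.2 FPKM in the vector library (1.05). VLDLR (0.83) and MAP1LC3B (0.69) were within 2-fold as deposited, and MAP1LC3B was so after GC correction too (0.84). The file's locus spans 1 other listed gene for VLDLR and 5 for MAP1LC3B. TRIB2 was below a mean FPKM of 1, at 0.566 and 0.193 FPKM in those libraries.

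Upstream of ATF4, the genes of eIF2 and its regulators were mostly at or below the median gene. Among 20 tested genes 4 were lower and 0 higher by the 2-fold rule (median -0.33), beside 9.46% and 12.8% of all tested genes. After GC correction 2 of the 4 were lower, beside 5.96% of all genes. EIF2S1, which encodes the eIF2 subunit that the stress kinases phosphorylate, was at 16.5 FPKM in the ATOH8 library and 72.4 FPKM in the vector library (-1.71, and -1.14 after GC correction). EIF2S2, the beta subunit gene, was at 19.6 and 77.0 FPKM (-1.56, and -1.47 after GC correction), whereas EIF2S3, the gamma subunit gene, was at 107 and 105 FPKM (0.38). The protein phosphatase 1 catalytic subunit genes PPP1CB (-1.54) and PPP1CC (-1.13) were the other lower genes, at -0.80 and -0.89 after GC correction. Among the kinases, EIF2AK4 (GCN2, which senses uncharged tRNA) was at 10.7 FPKM in the ATOH8 library and 13.8 FPKM in the vector library (0.02). EIF2AK1 (0.13), EIF2AK3 (-0.37) and EIF2AK2 (-0.53) were within 2-fold as well.

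Genes of tRNA charging, which ATF4 induces in part, lay mostly below the median gene. Of 21 tested, 20 of which encode synthetases or their subunits and the other the tRNA exporter XPOT, 7 were lower and 1 was higher by the 2-fold rule (median -0.74). The shares of all tested genes were 9.46% and 12.8%. After GC correction 8 were lower and 0 higher (5.96% and 8.33% of all genes), and as deposited 13 were lower (19.0%). TARS1, the threonyl synthetase gene, was at 24.5 FPKM in the ATOH8 library and 151 FPKM in the vector library (-2.22). XPOT followed at 12.2 and 51.1 FPKM (-1.62) and NARS1, the asparaginyl synthetase gene, at 23.2 and 78.3 FPKM (-1.35). SARS1, the seryl synthetase gene, was on the median gene at 41.4 FPKM in the ATOH8 library and 52.7 FPKM in the vector library (0.02). IARS1 (-1.29), FARSB (-1.27), EPRS1 (-1.26) and RARS1 (-1.15) were the other lower genes. After GC correction FARSB (-0.87) and RARS1 (-0.74) were within 2-fold, and FARSA (-1.23), YARS1 (-1.10) and MARS1 (-1.09) were past it. The higher gene was QARS1, the glutaminyl synthetase gene, at 146 FPKM in the ATOH8 library and 76.8 FPKM in the vector library (1.28, and 0.89 after GC correction).

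After GC correction 2 of 20 other tested enzymes of amino acid synthesis were higher and 4 lower, beside 8.33% and 5.96% of all genes. By the 2-fold rule relative to the median gene, 3 were higher and 2 lower (median 0.31), beside 12.8% and 9.46% of all tested genes. The higher genes were SDSL, a serine dehydratase-like gene (16.2 FPKM in the ATOH8 library and 4.58 FPKM in the vector library, 1.99), and the arginine synthesis genes ASS1 (14.7 and 5.02 FPKM, 1.74) and ASL (19.5 and 9.13 FPKM, 1.38). Of these, ASL was within 2-fold after GC correction (0.85). The lower genes included BCAT1, a branched-chain aminotransferase gene, at 0.616 FPKM in the ATOH8 library and 4.65 FPKM in the vector library (-1.45). Its GC-corrected fold of -0.81 was within 2-fold. PYCR1, an ATF4 target of proline synthesis, was at 30.9 and 52.3 FPKM (-0.38). PCK2, mitochondrial PEP carboxykinase and another ATF4 target, was at 37.6 FPKM in the ATOH8 library and 27.3 FPKM in the vector library (0.81). GC-corrected folds were -0.96 for PYCR1 and 0.24 for PCK2.

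NRF2, which is linked to serine synthesis through ATF4 in lung cancer lines, had a lower transcript level, and most genes of its list were within 2-fold of the median gene. NFE2L2, the NRF2 gene, was at 15.0 FPKM in the ATOH8 library and 45.3 FPKM in the vector library (-1.17, and -1.12 after GC correction). Of 18 tested genes of this list, NFE2L2 among them, 2 were lower and 0 higher by the 2-fold rule (median -0.16). The shares of all tested genes were 9.46% and 12.8%. As deposited 6 were lower (19.0% of all tested genes), and after GC correction 4 were lower (5.96%). The other lower gene was GCLC, of glutathione synthesis, at 12.9 and 57.6 FPKM (-1.72). KEAP1 (-0.72) was past 2-fold only as deposited and after GC correction. NQO1, a standard readout of NRF2, was at 961 FPKM in the ATOH8 library and 1070.4 FPKM in the vector library (0.20), and TKT, of the pentose phosphate pathway, at 1198 and 785 FPKM (0.97).

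**Figure D4:**
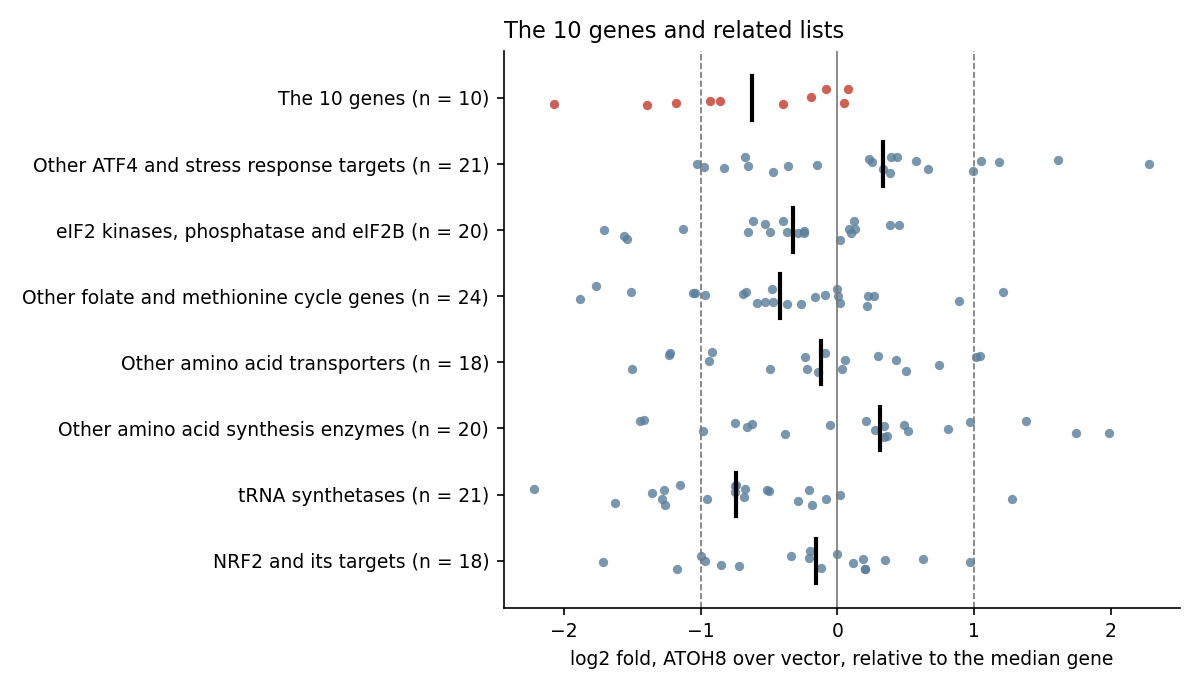
Log2 fold relative to the median gene for the tested members of each list, 1 point per gene, with the list median as a black bar and dashed lines at 2-fold. The 10 genes (red) have a median of -0.63, tRNA charging genes one of -0.74, and other ATF4 targets one of 0.34.

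Over the 7 related lists, 24 of 142 tested genes were lower and 11 higher by the 2-fold rule, beside 9.46% lower and 12.8% higher among all tested genes. The file's locus spanned another listed gene for 74 of the 142, beside 53.5% of all tested genes. EIF2S1, EIF2S2, SLC25A32, SLC7A11, NFE2L2 and GCLC were among the 74, so that the counting may have divided reads among neighbours. Such a shared locus was found for 2 of the 10 genes and not for the other 8. Processed or unprocessed pseudogenes named after 6 of the 10 genes number 22 in GENCODE 29, and those listed in either file stood at 1.11 FPKM or less (SLC7A5P1 in the vector library), far below their parent genes.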

How the data were processed

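RNA had been harvested with Trizol and sequenced from libraries made with a standard Illumina preparation, per the labels' protocols. The submitters' processing notes give build hg38 (GRCh38) and the tools CASAVA, HISAT2 and Cufflinks 2.2.1 with no role for each. The sources used here do not give the annotation release, strand setting, filters or depth. For each library the authors deposited FPKM in a table of its own, per the file headers, and another table that compares the libraries gene by gene (log2 ratio, p-value, q-value), also per its header. That table holds 2747 genes, none with a q-value above 0.05 or an absolute log2 ratio under 1.00. Its other 2 columns of per-library values match no sample label and were left aside.

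Both FPKM tables were merged on gene identifier, and FPKM of rows with the same symbol were added. The fold was log2(ATOH8 + 1) minus log2(vector + 1), a scale that understates the change of low genes, less its median over genes averaging 5 FPKM or more, for the 12342 genes averaging 1 FPKM or more. No test was run, since 1 library per group gives no spread; a size of 2-fold was used. GC content came from the longest GENCODE 29 transcript (99.8% of tested genes matched), and its correction subtracted a lowess curve (fraction 0.3; statsmodels 0.14.6, Python 3.11.15) of the fold on GC content, centred on its median. The procedure was tested on simulated data. Promoters were matched by symbol to RefSeq entries. All 10 genes are reported. The 7 related lists, the named genes (those past 2-fold, the furthest from the median gene and close relatives of the 10) and the alternatives were chosen with earlier results of these data known. Some genes counted in these lists are not reported here by name. List symbols were matched by gene identifier, and 20 of 153 stand in the files under another symbol.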

Additional observations from a re-analysis of the deposited data

How the results depend on the processing

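No paired analysis was possible because each group holds 1 library, and for the same reason no library could be left out. Of the 10 genes, 3 were at least 2-fold lower relative to the median gene, and 5 were as deposited or as TPM, when PHGDH and SLC7A5 also passed. Over the related lists, 24 genes were lower and 11 higher relative to the median gene, against 47 and 5 as deposited (19.0% and 6.24% of all tested genes) and 40 and 6 as TPM (2364 and 1240 of all 13704 tested). A pseudocount of 5 gave 7 higher (636 of all 12342 tested). Genes with no other listed gene in their locus gave 13 lower and 7 higher among 68 tested (576 and 782 of all 5736 tested). The median of the 10 genes ran from -0.99 to -0.61 over the 11 alternatives. PSAT1 ran from -2.43 to -1.74 and ASNS from -1.54 to -1.16. MTHFD2, from -1.75 to -0.98, was short of 2-fold under the GC correction alone. As deposited and TPM differ from the relative scale mainly by a constant over all genes, and for the other shifts the cause was not tested. Since depth is unknown, no counting limit could be given.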
